A study of Mus musculus with 4 samples.

Results

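The Dlk1-Meg3-Rian cluster is a group of imprinted genes on mouse chromosome 12, and 6 of its genes are described here: Meg3, Rian and Mirg, which give long noncoding RNAs, and Rtl1, Dlk1 and Dio3, which code for proteins. They were taken by symbol, and all 6 were found among the 18854 genes of the deposited expression table. The cluster was selected on its CPM values and fold changes in this same comparison, so the values of the 6 genes are a description and carry no p-values. The libraries came from wild-type mouse cortical neurons kept for 15 days in culture. In 2 of them the neurons had been given the p53 activator Nutlin-3 for 2 days, and in the other 2 DMSO, its solvent. The samples titled DMSO carry a treatment label that reads as untreated, and their titles were followed. Nothing in the labels gives the dose, the age or strain of the animals, or whether replicate libraries were made from different cultures. Errors and p-values therefore rest only on how far these 4 libraries spread, and that spread may be technical. The SEs and p-values of limma rest mostly on that spread pooled over genes of like level (98.0 prior degrees of freedom). They are not the spread of a gene between its own replicates. Nutlin-3 keeps the ubiquitin ligase Mdm2 from binding p53 and so raises p53 protein.

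In an imprinted cluster each gene is read from the chromosome of one parent. From the maternal chromosome come Meg3, Rian and Mirg, which lie in a row in the same direction and carry most of the small RNAs of the region: Rian hosts box C/D snoRNAs, and the stretch around Mirg holds one of the largest groups of microRNA genes in the mouse. From the paternal chromosome come Dlk1, a membrane ligand related to the Notch ligands, Rtl1, a gene derived from the Gag and Pol parts of a retrotransposon, and Dio3, the deiodinase that inactivates thyroid hormone. Methylation of a control region upstream of Meg3 sets which parental copy is active. Meg3 is abundant in neurons of the brain, and in human tumour cell lines MEG3 RNA is known to raise p53 activity. The libraries do not tell the parental copies apart.

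The annotated start of Meg3 and that of Rian are shown because both are noncoding RNAs of the maternal row and their treatment differences were unlike. Whether these starts were used in the cultures, and whether their sequences bear on the differences, was not tested. Rtl1, which was less like Rian still, has no promoter sequence in the RefSeq table used. For Meg3, of which RefSeq gives 2 starts, it is the upstream one. Both sequences are from RefSeq (build GRCm38.p6, plus strand) and run from 250 bases before to 50 bases after the annotated start, at chr12:109540746-109541045 for Meg3 and chr12:109603695-109603994 for Rian. Capitals mark matches on either strand to CCAAT, to the cyclic AMP response element TGACGTCA and to the TATA box TATATAA.
Meg3: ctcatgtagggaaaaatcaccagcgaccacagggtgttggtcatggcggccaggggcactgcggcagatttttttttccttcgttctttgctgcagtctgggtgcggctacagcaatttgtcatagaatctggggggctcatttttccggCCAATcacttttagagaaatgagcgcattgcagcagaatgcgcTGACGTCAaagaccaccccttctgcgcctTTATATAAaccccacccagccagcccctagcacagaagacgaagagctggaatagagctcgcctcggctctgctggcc
Rian: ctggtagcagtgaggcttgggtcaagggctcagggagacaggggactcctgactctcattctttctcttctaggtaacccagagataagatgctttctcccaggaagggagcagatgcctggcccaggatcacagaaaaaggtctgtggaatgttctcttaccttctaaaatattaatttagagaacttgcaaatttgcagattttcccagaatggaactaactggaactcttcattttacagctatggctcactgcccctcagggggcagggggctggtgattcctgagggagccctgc
The Meg3 window held CCAAT 100 bases before the start, the response element 57 bases before it, and the TATA box in 2 overlapping matches, on opposite strands, that began 28 and 27 bases before it. The Rian window held none of these motifs, which says only that these letters are not in it. The motifs were picked after the Meg3 sequence had been read. Of 32851 RefSeq windows of this length, 1.79% held the response element, 3.24% the TATA box and 37.4% CCAAT. The p53 half-site consensus, which 8.36% of windows held, had no match in any window of the 5 cluster genes with a window, Meg3, Rian, Mirg, Dlk1 and Dio3. At that share a lack of matches in so few windows is the likely outcome, and binding of p53 was not measured. The CpG dinucleotide occurred 13 times in the Meg3 window shown and 0 times in that of Rian. It occurred 9 times in the window of Dlk1, 10 times in that of Mirg and 25 times in that of Dio3. The window of the downstream Meg3 start, which is not shown, held 1 CpG and, like that of Rian, no CCAAT, response element or TATA box. The contrast with Rian thus holds for the upstream Meg3 start only.

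RefSeq gives 61 microRNA genes between Dlk1 and Dio3, of which 11 were listed in the table. For their 61 hairpins the reference used held 113 mature sequences with 104 distinct seeds, and the 9 seeds that recur are each shared by 2 of these sequences. For some hairpins, Mir376c, Mir487b and Mir539 among them, no 3-prime arm was held, so further shared seeds may be missed. The sequences below are those of the 2 microRNA genes inside Rian that were lower with the activator, of Mir134 near Mirg, which was not, and of a pair that shares a seed. Capitals mark the seed, bases 2 to 8.
mmu-miR-341-5p: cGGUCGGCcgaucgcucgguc
mmu-miR-341-3p: uCGGUCGAucggucggucggu
mmu-miR-1188-5p: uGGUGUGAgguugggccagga
mmu-miR-1188-3p: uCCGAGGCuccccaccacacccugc
mmu-miR-134-5p: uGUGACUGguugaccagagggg
mmu-miR-134-3p: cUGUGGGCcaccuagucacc
mmu-miR-379-3p: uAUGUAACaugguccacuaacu
mmu-miR-411-3p: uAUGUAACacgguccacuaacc
The 3-prime arms of Mir379 and Mir411 have the same seed, while the mature sequences of Mir341, Mir1188 and Mir134 share their seeds with no other of the 113 sequences held for the cluster. Reads counted on these genes in libraries of total RNA need not come from mature microRNAs, and no selection of small RNAs is named in the labels.

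Values were CPM, read counts scaled to a common library total of counted reads. They rested on 19065197 and 17716272 reads in the p53 activator libraries and on 14584247 and 14968028 reads in the DMSO libraries. Composition went with treatment. Mitochondrial transcripts made up 8.97% and 9.99% of the reads with the activator and 15.6% and 14.3% with DMSO, and nuclear protein-coding genes made up 83.0% and 82.6% with the activator and 73.4% and 75.8% with DMSO. Replicate libraries were further apart than counting noise alone would put them (chi-square over its degrees of freedom 5.16 with the activator, 4.52 with DMSO). Neuronal markers were high throughout. The 6 neuron genes summed to between 7485 and 7614 CPM with the activator and between 6437 and 7181 CPM with DMSO, and 4 of them rose while Rbfox3 fell (limma adjusted p = 0.00468, but 0.0619 without p53 activator replicate 2 and 0.0860 without DMSO replicate 1). Markers of astrocytes were present too, 7 of 7 listed and summing to 2563 and 2591 CPM with the activator and 2218 and 2249 CPM with DMSO. One of them rose, the glutamate transporter Slc1a2, by 0.26 on the log2 scale (limma adjusted p = 0.0362), a call lost without p53 activator replicate 1 (0.255), p53 activator replicate 2 (0.246) or DMSO replicate 1 (0.0582), with protein-coding scaling (0.322) and in edgeR (0.117). The 3 listed microglial markers summed to 2.88 and 3.67 CPM with the activator and 4.34 and 4.53 CPM with DMSO. Excitatory markers summed to 662 and 712 CPM with the activator and 508 and 571 CPM with DMSO, where 3 of 5, Slc17a7 among them, rose, and inhibitory markers to 713 and 700.5 CPM with the activator and 544 and 575 CPM with DMSO, where 4 of 5 rose. Oligodendrocyte markers (166 to 191 CPM over all libraries), endothelial and mural (4.94 to 7.06 CPM), fibroblast (13.4 to 15.4 CPM) and dividing-cell markers (106 to 121 CPM) held 1 call in all, a rise of Kdr. Mog, Cx3cr1, Tmem119, C1qa, Itgam, Cldn5, Pecam1 and Col1a2 were not among the genes listed. No listed marker of any cell type stood at 0 in all 4 libraries. The part of cell types and of library composition in the results below was not tested.

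Meg3, the noncoding RNA at the head of the maternal row, had 978 and 829 CPM in the p53 activator libraries, against 1833 and 1575 CPM in the DMSO libraries. The groups did not overlap, and every DMSO library stood above every activator library. Meg3 averaged 903 ± 106 CPM with the activator and 1704 ± 183 CPM with DMSO (SD, n = 2 each), a difference of -0.92 ± 0.10 (limma SE) on the scale of log2(CPM + 1). The mean with DMSO was 1.89 times that with the activator. In bulk RNA, fewer cells of a type and less RNA per cell cannot be told apart, which holds for each difference given here.

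Rian, the snoRNA host that follows Meg3 on the same strand, had 700.3 and 623 CPM with the p53 activator and 649.9 and 673 CPM with DMSO. Its groups overlapped, the activator libraries lying on either side of the DMSO libraries. The averages were 662 ± 54.5 CPM with the activator and 661 ± 16.0 CPM with DMSO, and the difference on the log2(CPM + 1) scale was -0.00 ± 0.09 (SE). Mirg, the microRNA host at the far end of the row, was far less abundant. It had 9.13 and 9.31 CPM with the activator, from 174 and 165 reads, and 12.1 and 12.96 CPM with DMSO, from 177 and 194 reads. Both activator libraries lay below both DMSO libraries, with a log2 difference of -0.41 ± 0.14 (SE), smaller than that of Meg3.

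Among the protein-coding genes, Rtl1 had 164 and 139 CPM in the activator libraries and 328 and 284 CPM in the DMSO libraries. Both activator libraries were lower than both DMSO libraries, and the mean with DMSO was 2.02 times the mean with the activator (log2 difference -1.01 ± 0.08 SE). Between replicates, the SD on the log2(CPM + 1) scale was 0.162 for Meg3, 0.156 for Rtl1, 0.0876 for Rian and 0.0459 for Mirg. The limma SE was thus below the replicate SD for Meg3 and Rtl1, near it for Rian and above it for Mirg. Rtl1 lies on the strand opposite to Meg3 and Rian, its RefSeq span overlaps the spans of both, and whether reads were counted by strand is not given in the sources used here. Without strand, reads of Rtl1 and of the maternal RNAs that run across it cannot be told apart, so the Rtl1 value may hold reads of either.

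Dlk1 and Dio3 were close to the detection limit, where 1 read is worth between 0.0525 and 0.0686 CPM. Dlk1 had 0.525 and 0.508 CPM with the activator, from 10 and 9 reads, and 1.17 and 0.601 CPM with DMSO, from 17 and 9 reads. Summed over the libraries of a group, that is 0.517 CPM (95% Poisson interval 0.311 to 0.807, counting error only) with the activator and 0.880 CPM (0.575 to 1.29) with DMSO, and these intervals overlap. Dio3 had 0.787 and 0.790 CPM with the activator, from 15 and 14 reads, and 0.411 and 0.735 CPM with DMSO, from 6 and 11 reads. Its summed levels were 0.788 CPM (0.528 to 1.13) with the activator and 0.575 CPM (0.335 to 0.921) with DMSO, and these intervals overlap as well. Neither gene reached 1 CPM in 2 libraries, so both stayed out of the fit, and at this depth a difference in either was not detectable.

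**Figure D1:**
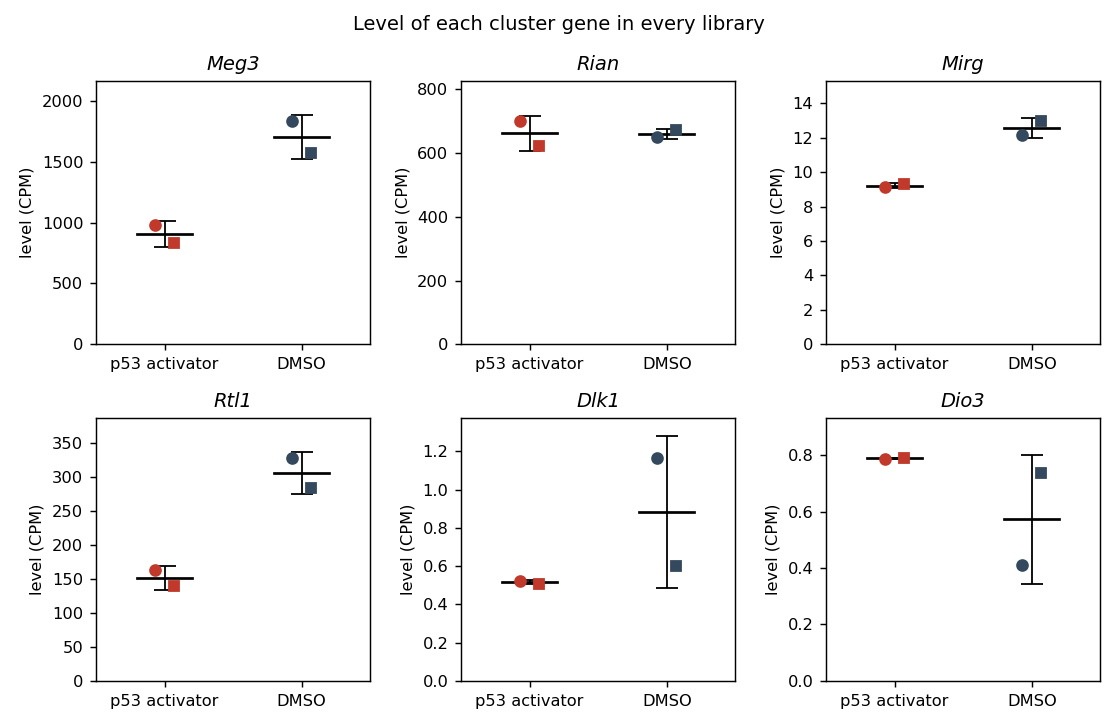
Level of each of the 6 cluster genes in CPM (vertical axis, from 0, on its own scale per panel) in the 2 p53 activator libraries and the 2 DMSO libraries; circles are replicate 1, squares replicate 2, lines the mean and bars the SD. Meg3 and Rtl1 stand lower in both activator libraries, Rian overlaps between the groups, and Dlk1 and Dio3 stay under 1.2 CPM.

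Levels of different genes were set side by side per kilobase of their GENCODE exons. With the activator the order per kilobase was Meg3 (49.9 ± 5.84 CPM per kb, SD, n = 2), Rian (36.3 ± 2.99), Rtl1 (23.8 ± 2.73), Mirg (1.26 ± 0.0181), Dio3 (0.388 ± 0.00121) and Dlk1 (0.0913 ± 0.00206). With DMSO it was Meg3 (94.2 ± 10.1 CPM per kb), Rtl1 (48.2 ± 4.89), Rian (36.3 ± 0.877), Mirg (1.72 ± 0.0800), Dio3 (0.282 ± 0.113) and Dlk1 (0.156 ± 0.0705). Rtl1 and Rian thus stood in opposite order in the 2 groups, with Rtl1 at 25.7 and 21.9 CPM per kb and Rian at 38.4 and 34.2 with the activator, against 51.6 and 44.7 for Rtl1 and 35.6 and 36.9 for Rian with DMSO. Dlk1 and Dio3, neighbours at the low end, did not differ beyond their spread with DMSO, while the libraries of the other neighbours in each order did not overlap. Among all genes listed, Meg3 ranked 70th and 99th by CPM with the activator and 24th and 31st with DMSO. Which exons the authors counted over is unknown here, so these levels per kilobase hold for the GENCODE exons.

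Ratios between genes within a library do not depend on how that library was scaled. Meg3 gave 140% and 133% as many reads as Rian in the activator libraries, against 282% and 234% in the DMSO libraries, a difference in the log2 ratio of -0.92. The ratio of Rtl1 to Meg3 differed far less: Rtl1 had 16.7% and 16.8% of the reads of Meg3 with the activator and 17.9% and 18.1% with DMSO, a log2 difference of -0.10. Thus the mean ratio of Rtl1 to Meg3 was 1.07-fold higher with DMSO, beside 1.89-fold for Meg3 to Rian and 2.02-fold for Rtl1 to Rian. Mirg lay between the pairs. It had 1.30% and 1.49% of the reads of Rian with the activator and 1.87% and 1.93% with DMSO (log2 difference -0.44), but 0.933% and 1.12% of the reads of Meg3 with the activator and 0.662% and 0.823% with DMSO (0.47). For each of these ratios the activator libraries and the DMSO libraries did not overlap. The CPM of 67.6% of all genes tested did not overlap either, and the ratios share genes with one another, so nothing is read from this. The 6 genes together took 0.185% and 0.160% of all reads with the activator and 0.283% and 0.255% with DMSO, and the share of Rian in that sum was 37.8% and 38.9% with the activator and 23.0% and 26.4% with DMSO.

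**Figure D2:**
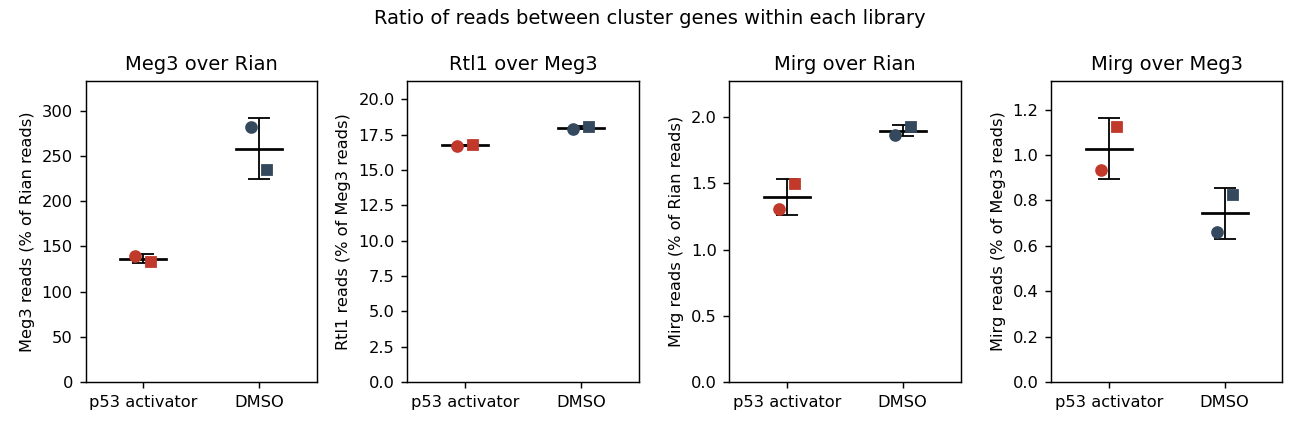
Reads of one cluster gene as a percentage of the reads of another in the same library (vertical axes, from 0), for the p53 activator and DMSO libraries; circles are replicate 1, squares replicate 2, lines the mean and bars the SD. Meg3 over Rian is 140% and 133% with the activator and 282% and 234% with DMSO, while Rtl1 over Meg3 stays between 16.7% and 18.1% in all 4 libraries.

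In the fit across all 16654 genes with at least 1 CPM in 2 libraries, 16.9% of genes were called higher and 16.3% lower with the activator, 33.2% in all (limma, Benjamini-Hochberg adjusted p under 0.05). Of the 4 cluster genes in that fit, Meg3, Rtl1 and Mirg had both activator libraries below both DMSO libraries, as did 30.9% of all genes tested, while 36.6% had them above and 67.6% in either order. The cluster was chosen with this contrast known, so nothing is read from that count. By position in the distribution, 2.53% of genes tested had a lower log2 fold change than Meg3, 1.43% lower than Rtl1, 16.3% lower than Mirg and 46.2% lower than Rian. Few abundant genes stood lower: of 2083 genes with a mean of at least 100 CPM, 46 had a lower log2 fold change than Meg3, 31 lower than Rtl1 and 393 lower than Rian. Long noncoding RNAs as a class lay low, with a median log2 fold change of -0.37 over 1095 genes, of which 15 rose and 452 fell, against a median of 0.09 over 12763 nuclear protein-coding genes, of which 2706 rose and 918 fell. Among the 21 long noncoding RNAs with a mean of at least 100 CPM the median was -0.86, so Meg3 stood near that median and Rian, like Meg3 one of the 21, above it. The split over all genes depended on the scaling: 583 rose and 3703 fell when scaled to protein-coding reads, and 1786 rose and 2895 fell in edgeR. It depended on single libraries too: without DMSO replicate 1, 1138 rose and 1445 fell, without p53 activator replicate 1, 1662 rose, and without p53 activator replicate 2, 1779 fell.

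**Figure D3:**
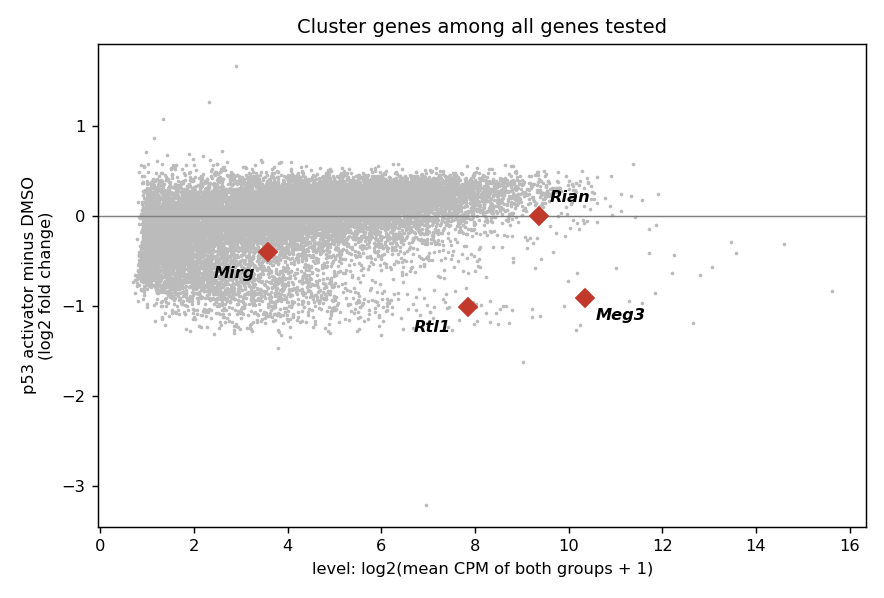
Log2 fold change, p53 activator minus DMSO (vertical axis), against level as log2 of the mean CPM of both groups plus 1 (horizontal axis) for the 16654 genes tested (grey points), with the 4 cluster genes in the fit as red diamonds. Meg3 and Rtl1 lie among the few abundant genes far below 0, Mirg at -0.41 and Rian at 0.

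Scaling moved the 4 genes together. When each library was scaled to its nuclear protein-coding reads, the median log2 fold change of all genes tested was -0.10 in place of 0.03, and the log2 differences were -1.07 for Meg3, -1.16 for Rtl1, -0.54 for Mirg and -0.15 for Rian. With edgeR and TMM scaling of the recovered reads they were -0.96, -1.06, -0.49 and -0.04 in the same order. Leaving out 1 library at a time gave -1.04 to -0.80 for Meg3, -1.13 to -0.90 for Rtl1, -0.45 to -0.36 for Mirg and -0.09 to 0.08 for Rian.

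Besides the 6 genes, RefSeq places 97 symbols from Dlk1 to Dio3, most of them microRNA and snoRNA genes, and 25 of these were listed in the table. They show how the reads that fall on small RNA genes inside and beyond Rian compare with Rian itself. Of the 25, 15 reached 1 CPM in 2 libraries and were tested, and 8 fell while 0 rose (limma, adjusted p under 0.05, beside 16.3% and 16.9% of all genes tested). At an unadjusted p under 0.05, 10 were lower and 1 higher, with edgeR 8 fell and 0 rose, and with DESeq2 3 fell and 0 rose. The median log2 fold change of the 15 was -0.48, beside -0.44 for the 46 snoRNA genes that GENCODE names and the fit holds. Of those 46, 45.7% fell and 0% rose, and of 21 microRNA genes in the fit 42.9% fell and 4.76% rose. Symbols of the cluster were not taken out of these classes, so the classes partly hold the same genes. Nothing particular to the cluster is read from the counts. Many rested on few reads, and without p53 activator replicate 2 or DMSO replicate 1 the counts that fell were 5 and 3.

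Within Rian lie 10 of them, of which 6 fell, beside 45.7% of the snoRNA and 42.9% of the microRNA genes in the fit. The groups overlapped for Rian itself, and the difference between these 10 genes and Rian was not tested. AF357425, a snoRNA gene, had 1.15 and 1.81 CPM with the activator and 3.77 and 3.61 CPM with DMSO (log2 fold change -0.93 ± 0.20 SE, limma adjusted p = 0.000130). Gm24564, also a snoRNA gene, had 2.31 and 1.92 CPM with the activator and 4.80 and 4.01 CPM with DMSO (-0.79 ± 0.19, limma adjusted p = 0.000689). Mir1188 had 2.31 and 2.20 CPM with the activator and 4.46 and 4.34 CPM with DMSO (-0.73 ± 0.19, limma adjusted p = 0.00163). In these 3 genes every activator library stood below every DMSO library, and the calls were kept whichever 1 library was left out. Mir341 fell by 0.58 on the log2 scale, AF357426 by 0.48 and DQ267101 by 0.57, but these calls were lost without DMSO replicate 1 (limma adjusted p = 0.261, 0.0542 and 0.636). They were also lost without p53 activator replicate 1 for Mir341 (0.149) and AF357426 (0.216), without DMSO replicate 2 for AF357426 (0.215), and without p53 activator replicate 2 for DQ267101 (0.141).

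The exception within Rian was AF357359, the most abundant of the 10. It had 30.3 and 28.5 CPM with the activator and 24.8 and 25.9 CPM with DMSO, so that both activator libraries stood above both DMSO libraries, with no call (log2 fold change 0.21 ± 0.10 SE, limma adjusted p = 0.112). DQ267100 (-0.24), LOC115488061 (-0.45) and DQ267102 (-0.44) had both activator libraries below both DMSO libraries and were not called. Summed over all 10 genes, small RNA genes within Rian had 45.2 and 45.5 CPM with the activator and 54.9 and 52.6 CPM with DMSO, a log2 difference of -0.25. That was 6.46% and 7.30% of the Rian reads with the activator and 8.45% and 7.83% with DMSO. AF357359 made up most of that sum with the activator, and the 9 other genes had 14.9 and 17.0 CPM with the activator and 30.2 and 26.8 CPM with DMSO (log2 difference -0.84). These were 2.13% and 2.73% of the Rian reads with the activator and 4.64% and 3.98% with DMSO. AF357359, which goes the other way, was set aside in this second sum after its values were seen.

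Between Rian and Mirg lie 13 listed symbols, of which 4 were tested. The snoRNA genes Gm25856 (0.839 and 0.452 CPM with the activator, 1.85 and 1.002 CPM with DMSO) and Gm22205 (0.629 and 0.395 CPM with the activator, 1.30 and 1.20 CPM with DMSO) fell by 0.55 and 0.58 on the log2 scale. Those calls were lost without DMSO replicate 1 (limma adjusted p = 0.542 and 0.203) and without p53 activator replicate 2 (0.294 and 0.181), and that of Gm22205 also without DMSO replicate 2 (0.114). Gm23787 stood at 1.52 and 0.847 CPM with the activator and 1.71 and 1.67 CPM with DMSO, with no call. Mir134, known for control of dendritic spine size in the rodent brain, stood at 1.47 and 0.847 CPM with the activator and 1.17 and 0.935 CPM with DMSO (limma adjusted p = 0.854). Mir453, within Mirg, had 1.42 and 0.960 CPM with the activator and 0.823 and 2.00 CPM with DMSO (limma adjusted p = 0.748). Neither showed a direction, and the groups overlapped in both. The 10 symbols under the filter, Mir379 and Mir411 among them, stayed at or below 1.30 CPM in every library.

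The genes whose levels over the 4 libraries ran most like each cluster gene were taken among 9176 genes with a mean of at least 10 CPM, by the root mean square distance of centred log2(CPM + 1). By rule, the cluster genes and all genes whose symbol is Gm followed by a digit were left out. Genes so named may therefore run as close as those given here, or closer. Nearest to Meg3 were Kirrel3os (distance 0.0106), LOC118567558 (0.0177) and A930013F10Rik (0.0202), and 47 genes lay within 0.1. Nearest to Rtl1 were LOC118568618 (0.0209), 4930544F09Rik (0.0271) and Kcnq1ot1 (0.0281), an imprinted antisense RNA of another cluster, and 27 genes lay within 0.1. Kirrel3os, named as the opposite strand of Kirrel3, had 17.4 and 14.8 CPM with the activator and 33.5 and 28.4 CPM with DMSO. Mirg ran most like Syn3 (0.0112), which encodes synapsin III, Msantd7 (0.0257) and Pcdhb15 (0.0311), a protocadherin, with 286 genes within 0.1. Rian ran most like Cox6b1 (0.00527), a subunit of cytochrome c oxidase, Senp5 (0.00687), a SUMO protease, and Rapgef4 (0.0111), a cyclic AMP-regulated exchange factor, with 2843 genes within 0.1. Between the cluster genes themselves the distance was 0.0490 for Meg3 and Rtl1, 0.214 for Rian and Mirg, 0.292 for Meg3 and Mirg, 0.334 for Rtl1 and Mirg, 0.468 for Meg3 and Rian and 0.515 for Rtl1 and Rian. With 4 libraries in 2 groups such a distance is set mostly by the group difference.

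Genes that flank the cluster show whether the difference reached past its ends. On the side of Dlk1, 2 of 8 tested neighbours rose and 1 fell (median log2 fold change 0.11, beside 0.03 for all genes tested, of which 16.9% rose and 16.3% fell). On both sides the share of neighbours called was near the 33.2% of all genes. Wars1, the tryptophanyl-tRNA synthetase, had 71.5 and 74.8 CPM with the activator and 54.6 and 55.1 CPM with DMSO (log2 fold change 0.41, limma adjusted p = 6.23e-05), Yy1, a zinc finger transcription factor, rose by 0.27 on the log2 scale, and Degs2, a sphingolipid desaturase and hydroxylase, fell by 0.52. Begain, the neighbour next to Dlk1, had 33.7 and 33.7 CPM with the activator and 28.8 and 35.1 CPM with DMSO, with no call (limma adjusted p = 0.564). On the side of Dio3, 2 of 11 rose and 1 fell (median 0.18): Dync1h1, the dynein heavy chain, rose by 0.45 and the chaperone Hsp90aa1 by 0.24 on the log2 scale, and the kinase Mok fell by 0.36. Ppp2r5c, a regulatory subunit of protein phosphatase 2A and the next of these after Dio3, had 188 and 173 CPM with the activator and 159 and 158 CPM with DMSO, with no call (limma adjusted p = 0.0502). Of the neighbours named as called, only Wars1 was called whichever library was left out. Leaving out 1 library, the adjusted p reached 0.0815 for Yy1 (without DMSO replicate 1), 0.209 for Degs2 (without DMSO replicate 2), 0.0692 for Dync1h1 (without p53 activator replicate 2), 0.0924 for Hsp90aa1 (without p53 activator replicate 1) and 0.729 for Mok (without DMSO replicate 1). On the Dlk1 side 1 gene was called without p53 activator replicate 2, DMSO replicate 1 or DMSO replicate 2, and on the Dio3 side 0 without p53 activator replicate 2 and 1 without DMSO replicate 1.

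Among imprinted genes of other clusters, 7 of 35 tested rose and 7 fell (median log2 fold change 0.06), close to the 16.9% and 16.3% of all genes. All 3 long noncoding RNAs among them fell, and each is read from the paternal chromosome. Kcnq1ot1, the antisense RNA of the Kcnq1 domain, had 416 and 358 CPM with the activator and 830.2 and 756 CPM with DMSO (log2 fold change -1.03 ± 0.09 SE, limma adjusted p = 7.92e-19). Snhg14, the snoRNA host that runs antisense to Ube3a, had 809 and 721 CPM with the activator and 1303 and 1228 CPM with DMSO (-0.73, limma adjusted p = 4.40e-10), and Airn, the antisense RNA of Igf2r, was low and fell by 0.61, a call lost without p53 activator replicate 2 (limma adjusted p = 0.105) or DMSO replicate 1 (0.119). Of the 32 coding genes 7 rose and 4 fell. Ndn, which encodes necdin, a neuronal MAGE family protein, rose to 165 and 172 CPM with the activator, against 111 and 122 CPM with DMSO (log2 fold change 0.53, limma adjusted p = 3.10e-08), and the growth factor receptor Igf2r rose by 0.45. Ube3a, the ubiquitin ligase that is maternal in neurons, fell by 0.25 and the potassium channel Kcnq1 by 0.65, but both overlap an antisense RNA that fell, and without strand their reads cannot be told from those of that RNA. The call of Ube3a was lost without p53 activator replicate 1 (limma adjusted p = 0.0637), p53 activator replicate 2 (0.271) or DMSO replicate 1 (0.0956), and that of Kcnq1 without p53 activator replicate 2 (0.0906) or DMSO replicate 2 (0.408). Genes were listed here as maternal or paternal by their general description, and which copy these cultures read was not measured. Of the genes listed as maternal 5 of 13 were called, 1 without p53 activator replicate 2, 2 without DMSO replicate 1 and 3 without either of the other libraries. Of those listed as paternal 9 of 22 were called, 5 rising and 4 falling, and 5 were called without DMSO replicate 1. Scaled to protein-coding reads, 1 paternal gene rose and 4 fell.

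Other long noncoding RNAs known from neurons were listed for their likeness to Meg3 in kind, although many are far less abundant. Not all of them are nuclear or particular to neurons, and their place in the cell was not measured. Of 15 tested, 11 fell and 2 rose (median log2 fold change -0.49), beside 16.3% and 16.9% of all genes. The nearer comparison is with long noncoding RNAs as a class, of which 452 of 1095 fell and 15 rose (median -0.37). Among the 21 of that class with a mean of at least 100 CPM, 15 fell and 4 rose (median -0.86). Nothing particular to RNAs of neurons is therefore read from the count of this list. Miat, a nuclear RNA of neurons, had 143 and 130.2 CPM with the activator and 252 and 235 CPM with DMSO (log2 fold change -0.83 ± 0.08 SE, limma adjusted p = 5.06e-16). Those that rose were Tug1, by 0.39 on the log2 scale, and Oip5os1, by 0.23. The call of Oip5os1 was lost without p53 activator replicate 1 (limma adjusted p = 0.264) or DMSO replicate 2 (0.121) and with protein-coding scaling (0.440), and Tug1 was called in every setting tried. Kcnq1ot1 and Snhg14 belong to this list as well as to the imprinted one. Between 10 and 12 of the 15 were called whichever library was left out. 

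Of 20 genes that act on imprints, set or remove DNA methylation or form Polycomb complexes, 4 rose and 3 fell (median log2 fold change 0.09). That share was near the 33.2% of all genes called. Zfp57, a zinc finger protein that keeps imprinted control regions methylated, had 21.3 and 24.1 CPM with the activator and 36.3 and 29.5 CPM with DMSO (log2 fold change -0.51 ± 0.11 SE, limma adjusted p = 7.59e-05, and 0.0520 without DMSO replicate 1). Of the histone-binding proteins, Rbbp4 rose by 0.41 on the log2 scale and Rbbp7 by 0.34. Scaled to protein-coding reads, 1 gene of this list rose and 5 fell. Without p53 activator replicate 2, 4 were called, and without DMSO replicate 1, 2. Of 15 genes of microRNA maturation, 3 rose and 2 fell (median 0.07), again near the 16.9% and 16.3% of all genes. Lin28b, which blocks let-7 maturation, had 12.7 and 8.30 CPM with the activator and 16.5 and 17.6 CPM with DMSO (log2 fold change -0.68 ± 0.14 SE, limma adjusted p = 5.89e-05). The exporter Xpo5 and the GTPase Ran rose by 0.25 and 0.30, but scaled to protein-coding reads 0 genes of this list rose and 5 fell. The call of Ran was lost without p53 activator replicate 1 (limma adjusted p = 0.102) or DMSO replicate 2 (0.203), and that of Xpo5 without p53 activator replicate 2 (0.0920) or DMSO replicate 1 (0.229). Of this list 3, 2 and 2 were called without p53 activator replicate 1, p53 activator replicate 2 and DMSO replicate 1. Of 11 genes for proteins of box C/D snoRNA particles or for factors of their assembly, 0 were called by limma, beside 33.2% of all genes. With edgeR 0 were called and with DESeq2 0, while 2 were higher and 0 lower at an unadjusted limma p under 0.05. Nop56, the most abundant of them, had 44.3 and 45.0 CPM with the activator and 47.8 and 42.4 CPM with DMSO. Without p53 activator replicate 1, 1 of them was called.

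Genes around the 3 coding members behaved in more than one way. Rtl1 is one of several genes derived from retrotransposon Gag genes. Of 11 others tested, 5 rose and 0 fell (limma, median log2 fold change 0.25, beside 16.9% and 16.3% of all genes). At an unadjusted p under 0.05, 0 were lower, and 0 fell in edgeR or DESeq2. The 11 include Arc, Pnma1, Pnma2 and Pnma3, which are not of the Rtl family, and Pnma2 was among those that rose. Rtl6 had 56.6 and 55.5 CPM with the activator and 39.6 and 42.0 CPM with DMSO (log2 fold change 0.45, limma adjusted p = 3.27e-05), and Rtl8b had 80.0 and 72.2 CPM with the activator and 53.3 and 61.0 CPM with DMSO. Rtl8c rose by 0.40 on the log2 scale, a call lost without p53 activator replicate 2 (limma adjusted p = 0.0952); Rtl8b and Rtl8c are near-identical copies, between which reads may have been split. In this list 3 were called without p53 activator replicate 2, DMSO replicate 1 or DMSO replicate 2, and 2 rose and 0 fell when scaled to protein-coding reads.

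In the Notch pathway, which Dlk1 is known to modulate, 4 of 29 tested genes rose and 2 fell (median 0.04), fewer than the 33.2% of all genes called. Dner, a neuronal Notch ligand, had 430.4 and 525 CPM with the activator and 286 and 359 CPM with DMSO (log2 fold change 0.57 ± 0.09 SE, limma adjusted p = 6.83e-08, but 0.102 in DESeq2), while the coactivator Maml2 fell by 0.49 and Rbpj, the DNA-binding factor of the pathway, by 0.46. Of the genes of thyroid hormone transport, metabolism and response around Dio3, 6 of 19 rose and 0 fell (limma, median 0.14), beside 16.9% and 16.3% of all genes and 21.2% of nuclear protein-coding genes that rose, with 2 lower at an unadjusted p under 0.05, 2 that fell in edgeR and 0 in DESeq2. The amino acid and hormone transporter Slc7a5 rose by 0.40 on the log2 scale and the thyroid-responsive factor Klf9 by 0.37. Dio2, the deiodinase that activates the hormone, had 66.6 and 56.5 CPM with the activator and 71.3 and 60.5 CPM with DMSO, with no call (limma adjusted p = 0.412). The direction of this list rested on the scaling, since 2 rose and 3 fell when scaled to protein-coding reads. Without p53 activator replicate 2, 2 genes of the list were called, and without DMSO replicate 1, 3.

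**Figure D4:**
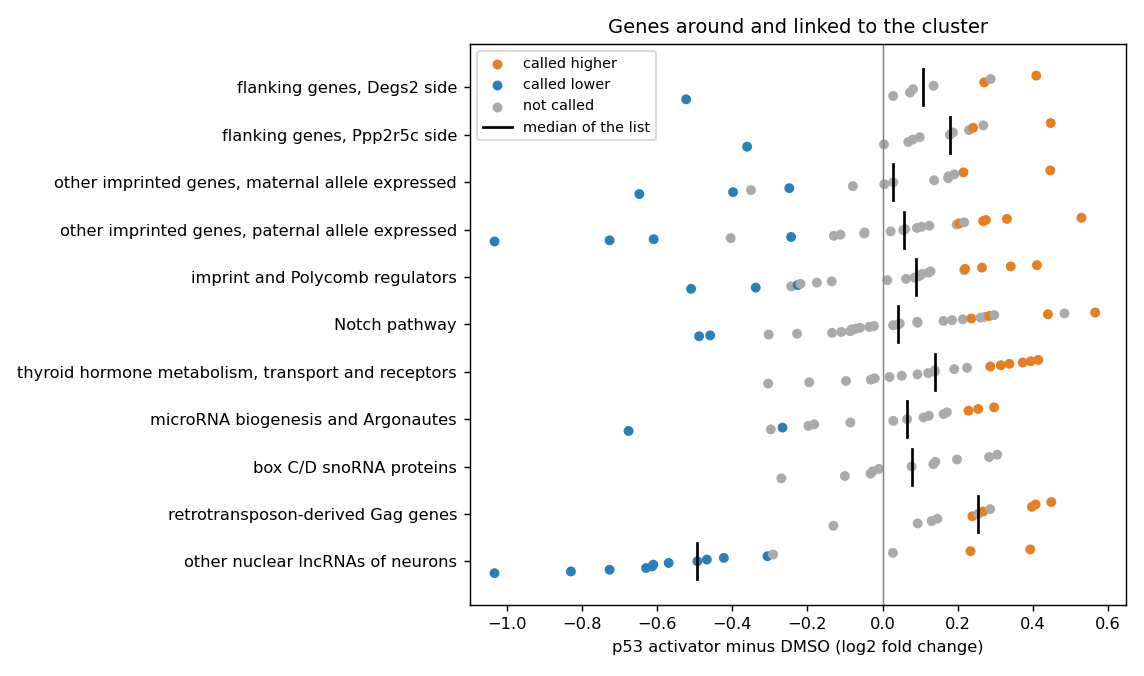
Log2 fold change, p53 activator minus DMSO (horizontal axis), of every tested gene of the 11 lists of neighbouring and related genes (rows); colours show limma calls at an adjusted p under 0.05 and black lines the median of each list. Long noncoding RNAs of neurons have a median of -0.49, and the other medians lie between 0.03 and 0.25.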

How the data were processed

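The authors deposited 1 table of CPM per library; its unit was read from the values, since no header or label names it. Each column's values were whole multiples of 1 step, so that reads could be recovered (100% of values came out whole, to 0.01 reads). Per the submitters' processing notes, TopHat2, Cufflinks 2.0.0 and build mm9 were used; how reads were counted, by strand or not and over which annotation, is not given in the sources used here. Between 0.133% and 0.208% of the library total lay outside the listed genes.

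The filter kept 16654 genes that reached 1 CPM in 2 or more libraries and removed 2200. limma 3.58.1 in R 4.3.3 fitted log2(CPM + 1) with a trend, empirical Bayes (98.0 prior degrees of freedom) and Benjamini-Hochberg adjustment over all genes, two-sided; fold changes of low genes are understated. The step was tested on simulated data in which few genes changed and library composition did not go with treatment. These data differ in both respects, so the simulation does not show how reliable the calls made here are. edgeR 4.0.16 and DESeq2 1.42.0 on the recovered reads, other pseudocounts and filters, protein-coding scaling, a replicate block and leaving out each library were alternatives. Gene classes and exon lengths came from GENCODE vM21, and neighbours and sequences from RefSeq, both on a build other than mm9. The cluster genes and lists were chosen with earlier results of these data known. Named genes were, by rule, the 6 genes, other cluster symbols with a mean of at least 1 CPM, the 3 called genes of each list with the smallest p or else its most abundant gene, the 3 nearest profiles and the most abundant marker of each cell type (Map2, Slc17a7, Gad1, Slc1a2, Olig1, P2ry12, Pdgfrb, Dcn and Nes); Begain, Ppp2r5c, Dio2, Gm22205, Airn, Tug1, Oip5os1, Rbfox3, Kdr, Mir379 and Mir411 were added after their values were seen. One gene that the rule names is not reported here.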

Additional observations from a re-analysis of the deposited data

How the results depend on the processing

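The calls over all genes leaned on the scaling and the model. Scaled to protein-coding reads 583 genes rose and 3703 fell, with edgeR 1786 rose and 2895 fell, and with DESeq2 1156 rose and 1585 fell; at a minimum of 5 CPM 1776 fell. Leaving out 1 library gave 1138 to 2122 rises and 1445 to 2468 falls. Among the cluster genes, the log2 difference of Rian was -0.15 scaled to protein-coding reads, and that of Mirg was -0.54 so scaled, -0.49 in edgeR and -0.47 in DESeq2. At a pseudocount of 0.1 Dlk1 was at -0.61 and Dio3 at 0.44, both on few reads. With 1 library left out, the log2 difference lay between -0.51 and -0.08 for Dlk1, 0.04 and 0.34 for Dio3, -1.04 and -0.80 for Meg3, -1.13 and -0.90 for Rtl1, -0.45 and -0.36 for Mirg and -0.09 and 0.08 for Rian. The log2 ratio differences ranged from -1.05 to -0.78 for Meg3 over Rian, -1.15 to -0.89 for Rtl1 over Rian, -0.11 to -0.10 for Rtl1 over Meg3, -0.54 to -0.34 for Mirg over Rian and 0.32 to 0.63 for Mirg over Meg3.

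With DESeq2 the called genes were 3 among the other cluster symbols, 1 on each flank, 2 maternal and 4 paternal imprinted genes, 3 imprint and Polycomb regulators, 3 Notch genes, 1 microRNA biogenesis gene and 2 Gag genes. Scaled to protein-coding reads 5 paternal imprinted genes and 2 Gag genes were called, and with edgeR 3 Gag genes. At a minimum of 5 CPM in limma, 1 of the other cluster symbols was called. Leaving out 1 library gave 3 to 6 other cluster symbols, 1 to 2 genes on the Dlk1 flank, 0 to 3 on the Dio3 flank, 1 to 3 maternal and 5 to 7 paternal imprinted genes, 2 to 7 imprint regulators, 4 to 6 Notch, 2 to 7 thyroid hormone, 2 to 4 microRNA biogenesis, 0 to 1 box C/D, 3 to 4 Gag and 10 to 12 other long noncoding genes. The cause of these moves was not tested.

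The titles give both groups the replicate numbers 1 and 2, but no label says that a number marks a shared culture, and the deviations of same-numbered libraries correlated at 0.117 across genes. With the replicate block 3705 genes rose and 3132 fell, and 5 genes of the Dio3 flank, 9 of microRNA biogenesis and 2 of box C/D proteins were called; the block did not alter the log2 differences of the 4 cluster genes in the fit. Depth limits Dlk1, Dio3 and the small RNA genes, most of which rest on under 100 reads per library.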
